A study of Mus musculus with 16 samples.

Results

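The miR-29 family was followed while serum was returned to resting 3T9 cells, a mouse fibroblast line derived from embryos and immortalised in culture. Of 1167 mature miRNAs in the count table, 5 are described here, chosen by name: the guide arms mmu-miR-29a-3p, mmu-miR-29b-3p and mmu-miR-29c-3p, and the passenger arms mmu-miR-29a-5p and mmu-miR-29b-1-5p (mmu, the mouse prefix, is left off from here on). Cells of every group had first been held without serum for 72 h. They were then harvested after 1, 2, 4, 6, 8, 10 or 12 h in medium with 10% fetal bovine serum, or at 0 h, before serum. Small RNA was sequenced from 2 independent experiments at each time, which gave 16 libraries of an unmodified line with no added transgene or drug named in the labels. The series asks how miRNA levels move as quiescent fibroblasts respond to serum.

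A miRNA is cut from a hairpin precursor as a duplex. One strand, the guide, stays in an Argonaute protein and pairs with messenger RNAs through its seed, while the other strand, the passenger, is as a rule released and degraded. The miR-29 guides are known for repressing extracellular matrix genes such as fibrillar collagens, elastin and fibrillin in fibroblasts, and also DNA methyltransferases and the survival factor Mcl1. The family is repressed by TGF-beta in fibroblasts and by Myc in human and mouse lymphoma cells, and human miR-29b was described in HeLa cells as short-lived in cycling cells and longer-lived in mitosis, unlike miR-29a.

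The mature sequences are shown because the members differ by few bases, which bears on how reads can be told apart. They are from RefSeq on the GRCm38.p6 build, written 5′ to 3′, with the seed (bases 2 to 8) in capitals. All 5 members were matched there by name.
miR-29a-3p: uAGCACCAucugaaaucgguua
miR-29b-3p: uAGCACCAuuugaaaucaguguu
miR-29c-3p: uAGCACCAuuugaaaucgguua
miR-29a-5p: aCUGAUUUcuuuugguguucag
miR-29b-1-5p: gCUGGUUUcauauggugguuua

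The 3 guides share the seed AGCACCA, and the passenger seeds CUGAUUU and CUGGUUU differ from it and from each other. Counted from 1 at the 5′ end, miR-29c-3p differs from miR-29a-3p only by C10U. miR-29b-3p differs from miR-29c-3p by G18A, U21G and A22U and is 1 base longer, at 23 against 22 bases. A read of either that ends before position 18 would therefore match both. How the authors assigned reads that match several miRNAs, or that carry a mismatch, is not given in the sources used here, so the split of reads between guides is uncertain to that extent.

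The precursors lie in 2 pairs. Mir29a (chr6:31062660-31062747) and Mir29b-1 (chr6:31063023-31063093) are on the minus strand of chromosome 6 with 275 bases between them, and Mir29b-1 overlaps an exon of the long noncoding RNA Gm27019. Mir29b-2 (chr1:195037040-195037120) and Mir29c (chr1:195037547-195037634) are on the plus strand of chromosome 1 with 426 bases between them. That second pair lies within an exon of the noncoding transcript A330023F24Rik and opposite an exon of Cd46, in the GENCODE annotation. miR-29b-3p is made from Mir29b-1 and from Mir29b-2 with the same sequence, so its reads cannot be assigned to one of them. miR-29b-1-5p comes from Mir29b-1 alone. The hairpins of the chromosome 6 pair are given below with the mature arms in capitals, since the read classes described later turn on the bases that flank those arms.
Mir29a: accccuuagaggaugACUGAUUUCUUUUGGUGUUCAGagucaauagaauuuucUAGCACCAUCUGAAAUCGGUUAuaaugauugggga
Mir29b-1: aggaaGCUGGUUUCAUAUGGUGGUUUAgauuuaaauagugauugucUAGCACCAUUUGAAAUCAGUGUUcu

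Libraries held 5852087 to 7783249 miRNA reads, and the family took 0.327% to 0.548% of them. Where a library has 0 reads of a miRNA, a level of up to 0.385 to 0.513 CPM remains possible, taken as 3 reads of its total. CPM, the usual per-library scaling of read counts, is based here on TMM-scaled totals, except for this limit, which uses the unscaled total. Like every interval given here the limit treats reads as independent counts and leaves out variation between libraries. Reads carry no molecular identifiers, so copies of the same molecule cannot be told from separate molecules. The table marks each experiment as 1 sequencing run, so the run and the experiment cannot be told apart. Of 6 miRNAs listed as fibroblast markers all were measured, with a summed level of 180527 to 269060.4 CPM. Most of that sum came from miR-143-3p and miR-21a-5p, which averaged 136104 and 69060 CPM. The others on that list averaged 823 to 13517 CPM. The summed levels of the blood, liver, neural, epithelial, muscle and pluripotent lists stayed at or below 11.2 CPM in every library. In bulk RNA, fewer cells that make a miRNA and less of it per cell cannot be told apart.

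Serum was followed by a gradual rise of the main guide, a fast and larger rise of the passenger of Mir29b-1, and no called change in the abundance of miR-29b-3p or miR-29c-3p. miR-29a-3p averaged 5509.6 ± 136 CPM at 12 h and 3493 ± 358 CPM at 0 h (SD, n = 2 each). miR-29b-1-5p averaged 31.6 ± 2.07 CPM at 4 h and 6.32 ± 0.241 CPM at 0 h. Of the 5 members 2 changed over the course, miR-29a-3p (adjusted p = 9.6e-04) and miR-29b-1-5p (adjusted p = 5.16e-04), where 13.8% of the 449 miRNAs tested did. Read counts were tested over the 7 later times with the quasi-likelihood F-test of edgeR, adjusted by Benjamini-Hochberg over all 449 with a threshold of 0.05. All 5 members passed its filter on low counts. The same test with the experiment as a block called 110 miRNAs against 62, among them miR-29a-5p (adjusted p = 0.0412, against 0.105 without it).

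**Figure D1:**
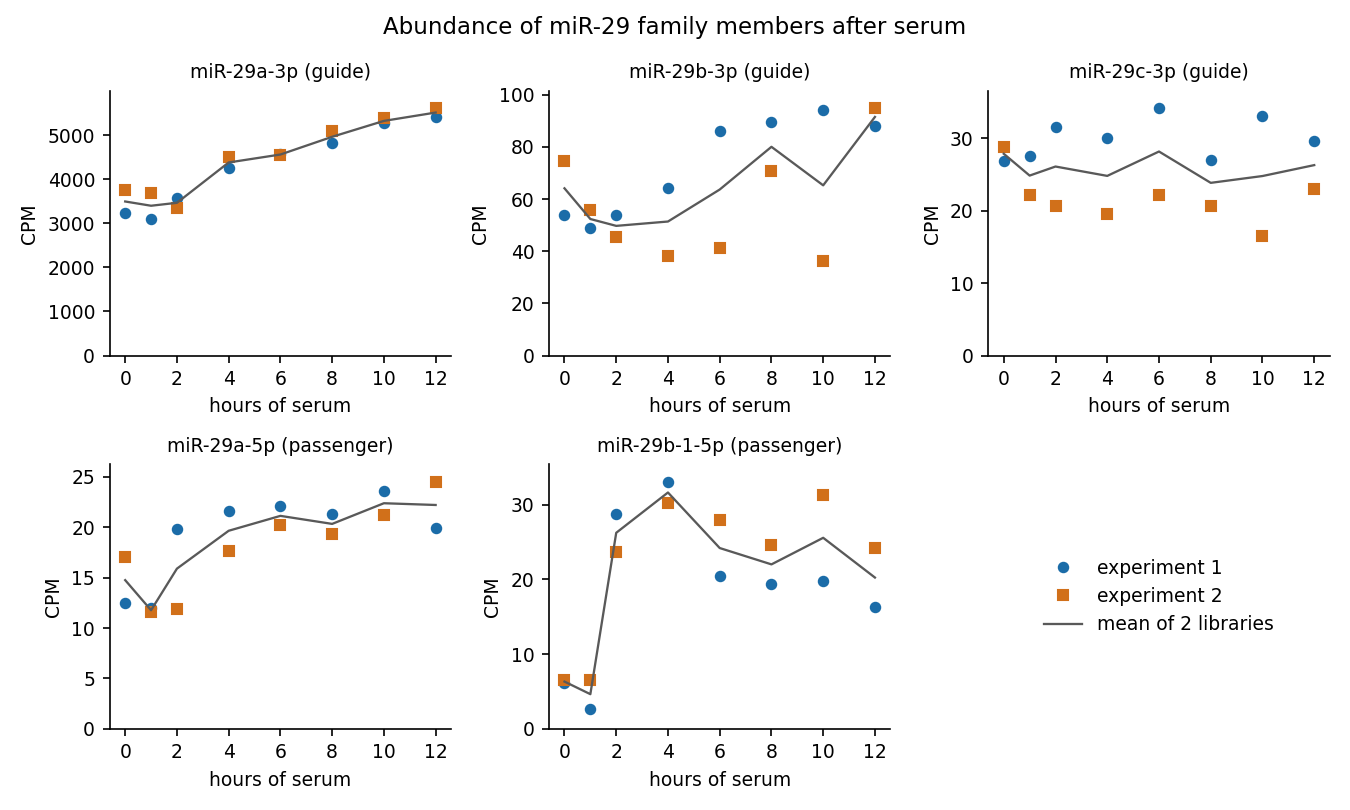
Abundance of the 5 members in CPM (y axes, each from 0 and scaled to its member) against hours of serum (x axes); circles are experiment 1, squares experiment 2 and the line their mean. miR-29a-3p rises in both experiments after 2 h, miR-29b-1-5p jumps between 1 and 2 h, and the experiments part for miR-29b-3p and miR-29c-3p.

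miR-29a-3p, the guide of Mir29a, held 97.3% to 99.0% of the reads of the 3 guides in every library. In experiment 1 its level was 3241, 3107, 3571, 4263, 4559.9, 4825, 5265 and 5413 CPM at 0, 1, 2, 4, 6, 8, 10 and 12 h. In experiment 2 it was 3746, 3687, 3357, 4493, 4557, 5095, 5375 and 5606 CPM at the same times. The first 3 times overlapped one another, and each later time from 4 h on lay with both libraries above both libraries of the time before it in order of level. The experiments stayed close, with a ratio of experiment 2 to experiment 1 between 0.940 and 1.19.

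Relative to 0 h, the log2 change of miR-29a-3p was 0.33 ± 0.11 at 4 h (SE, adjusted p = 0.0955) and 0.38 ± 0.11 at 6 h (adjusted p = 0.0503). Neither passed the threshold, and both did with the experiment as a block (adjusted p = 0.0223 at 4 h and 0.0078 at 6 h). The 6 h change also passed with DESeq2 (0.42, adjusted p = 0.0137) and with limma-voom (0.39, adjusted p = 0.0498). It had risen at 8 h (0.51 ± 0.11, adjusted p = 0.00908), at 10 h (0.61 ± 0.11, adjusted p = 0.00259) and at 12 h (0.66 ± 0.11, adjusted p = 0.00119). At 8 h 9.58% and at 10 h 11.8% of all miRNAs tested were called. The 8 h call was lost without the 0 h library of experiment 1 (log2 change 0.44, adjusted p = 0.0920), without the 8 h library of experiment 2 (0.49, adjusted p = 0.0693) and with unscaled totals (0.38, adjusted p = 0.0693). Members called at 12 h were 2 of 5, both higher, where 14.3% of all miRNAs tested were called and 8.24% were higher. The linear trend of miR-29a-3p was 0.0634 ± 0.0066 log2 units per hour (SE, adjusted p = 6.15e-07), 0.0687 in experiment 1 alone and 0.0584 in experiment 2 alone.

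Each miRNA's reads fall into classes, whose meaning is taken from their names: equal to the reference, trimmed (shorter), or extended at the 3′ or the 5′ end by bases that match the hairpin (templated) or do not. The rise of miR-29a-3p was uneven across them. Reads equal to the reference were at 1402, 1329.9, 1611, 2146, 2447, 2604, 2957 and 3041 CPM over the 8 times in experiment 1. In experiment 2 they were at 1624, 1580.3, 1497, 2192, 2358, 2715, 2908 and 3084 CPM. Every library from 4 h on was above every library of 0 to 2 h. Counting these reads alone, the log2 change at 12 h was 1.05 (adjusted p = 8.5e-06) in place of 0.66, and the 4 h (0.50, adjusted p = 0.0129) and 6 h (0.70, adjusted p = 7.3e-04) changes were called.

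Trimmed reads of miR-29a-3p stayed in one range. They were at 1361, 1308, 1408, 1454, 1416, 1430.0, 1408 and 1446 CPM in experiment 1. In experiment 2 they were at 1557, 1556, 1346, 1529, 1379, 1459, 1441 and 1466 CPM. The averages at 12 h (1456 ± 14.6 CPM) and at 0 h (1459 ± 139 CPM) differed by less than the spread between the libraries of 0 h.

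**Figure D2:**
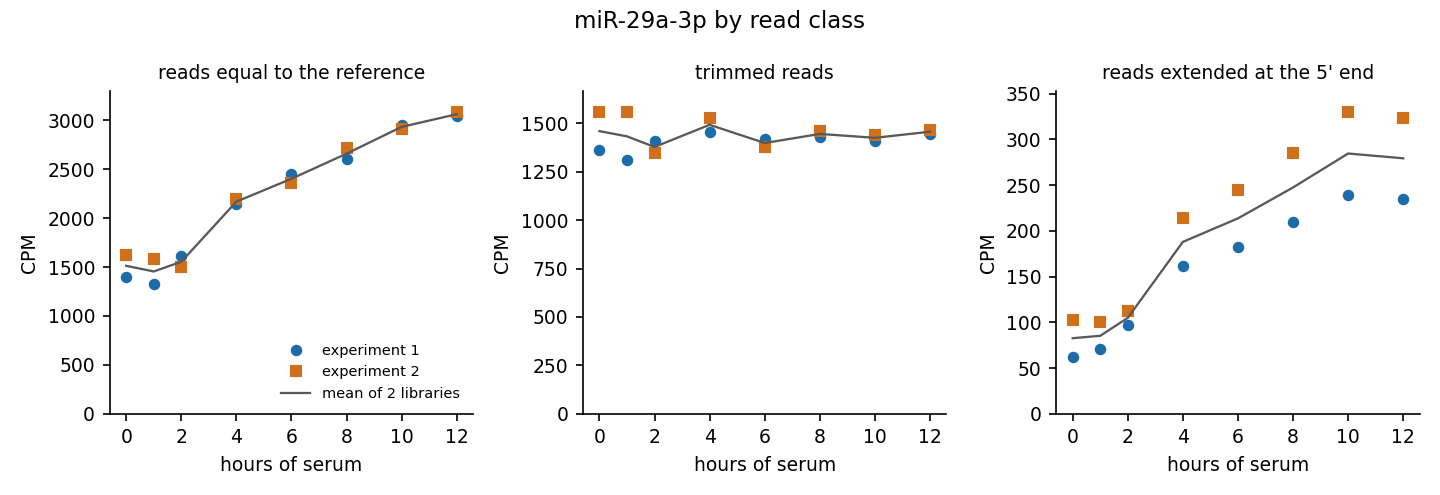
Level of miR-29a-3p in CPM (y axes from 0) by hours of serum (x axes) for 3 read classes (equal to the reference, trimmed, 5′-extended); circles are experiment 1, squares experiment 2, lines the means. Reads equal to the reference average 3062 CPM at 12 h and 1513 CPM at 0 h, while trimmed reads average 1456 and 1459 CPM at the same times.

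The trimmed share of miR-29a-3p therefore fell as its total rose. In experiment 1 it was 42.0%, 42.1%, 39.4%, 34.1%, 31.1%, 29.6%, 26.7% and 26.7% of its reads at 0, 1, 2, 4, 6, 8, 10 and 12 h. In experiment 2 it was 41.6%, 42.2%, 40.1%, 34.0%, 30.3%, 28.6%, 26.8% and 26.2%. The experiments differed by at most about a percentage point at any time, and every library from 4 h on lay below every library before it. The 95% Wilson interval of a single share was 0.911 to 1.29 percentage points wide. Over all 307 miRNAs with at least 20 reads in every library, the median trimmed share was 16.3% at 12 h and 18.3% at 0 h.

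Trimmed shares were tested as log2 odds (trimmed against all other reads, 0.5 reads added to each) with limma, adjusted over those 307 miRNAs. For miR-29a-3p the log2 odds had fallen at 4 h by 0.47 ± 0.06 (SE, adjusted p = 3.9e-04), at 6 h by 0.70 ± 0.06 (adjusted p = 2.9e-05), at 8 h by 0.80 ± 0.06 (adjusted p = 6.5e-06), after 10 h by 0.97 ± 0.06 (adjusted p = 8.1e-07) and at 12 h by 1.00 ± 0.06 (adjusted p = 6.1e-07). The share of miRNAs called was 4.23% at 4 h, 4.23% at 6 h, 4.56% at 8 h, 12.7% after 10 h and 12.1% after 12 h. The change at 1 h was 0.02 ± 0.06 and that at 2 h was -0.12 ± 0.06, and neither passed (adjusted p = 1.00 and 0.721). By trend, 3 of the 5 members had a falling trimmed share, where 32.2% of the 307 miRNAs had a called trend and 16% a falling one. The trend of miR-29a-3p was -0.0949 ± 0.0061 log2 units per hour (adjusted p = 3.8e-09), against a median of -0.0031 over the 307.

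**Figure D3:**
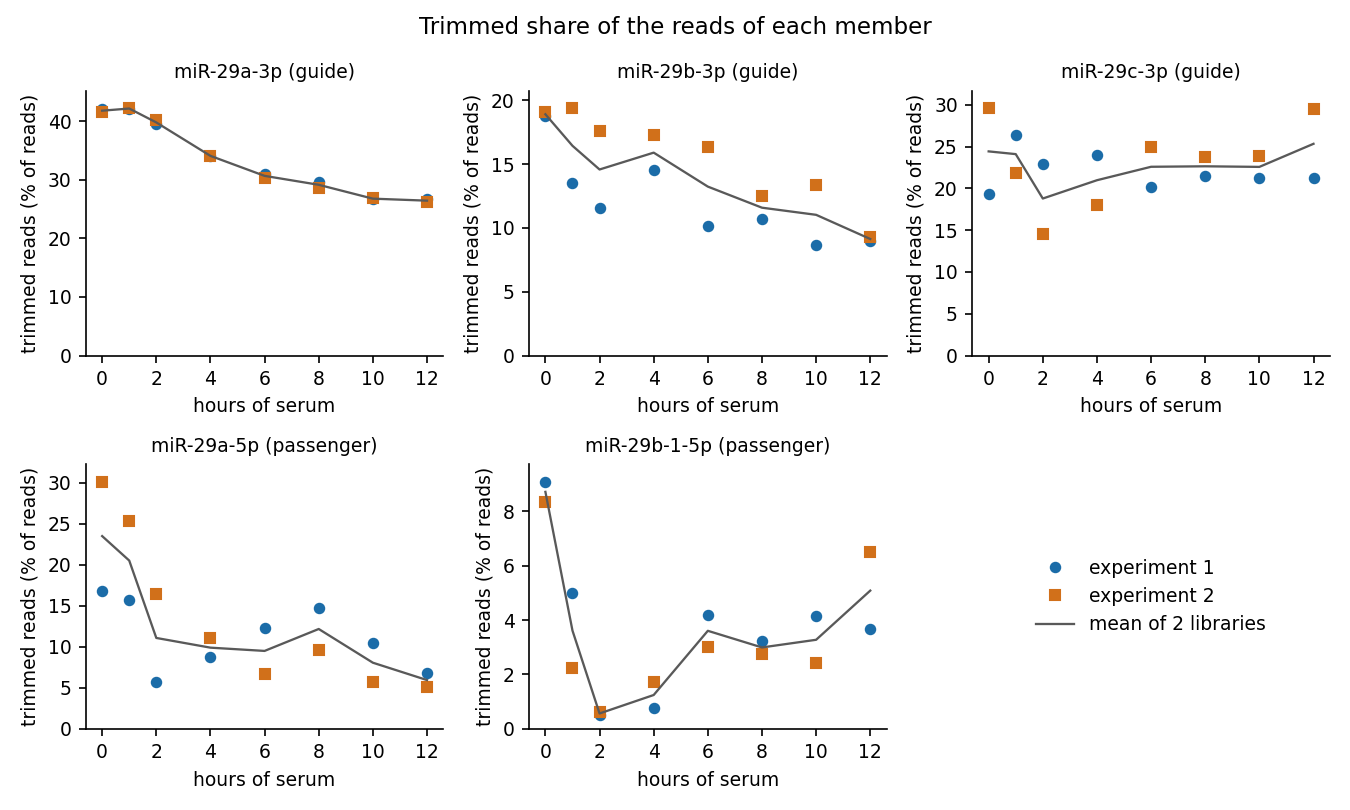
Trimmed reads as a percentage of each member's reads (y axes from 0) by hours of serum (x axes); circles are experiment 1, squares experiment 2, lines the means. The share of miR-29a-3p averages 26.4% at 12 h and 41.8% at 0 h with the experiments nearly on top of each other, and those of the less abundant members scatter more.

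Reads of miR-29a-3p extended at the 5′ end went the other way. In experiment 1 they were 62.7, 70.4, 97.0, 162, 183, 209.7, 239 and 235 CPM. In experiment 2 they were 103, 100.2, 113, 214, 245, 285, 329.8 and 324 CPM. Experiment 2 was higher at every time, and within each experiment every time from 4 h on was above 0, 1 and 2 h. As a share of the reads of miR-29a-3p they averaged 5.06% ± 1.02 at 12 h and 2.34% ± 0.57 at 0 h (SD, n = 2 each). In the Mir29a hairpin the base before the mature 3′ arm is c, and a guide that starts there reads UAGCACC at positions 2 to 8 in place of AGCACCA. The 5′-extended reads sum templated and non-templated ones without the number of bases added, so the share of that form is not known here.

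The 5′-extended share could be tested for 67 miRNAs with enough such reads. The trend of miR-29a-3p was 0.104 ± 0.018 log2 odds units per hour (SE, limma, adjusted p = 9.5e-04), where 10.4% of the 67 had a called trend, and it was called in experiment 1 alone (0.101, adjusted p = 0.0198) and in experiment 2 alone (0.107, adjusted p = 0.0300). The share had risen at 8 h (log2 odds change 1.14 ± 0.28, adjusted p = 0.0345) and 10 h (1.24 ± 0.28, adjusted p = 0.0380), where 5.97% and 2.99% of the 67 were called. At 12 h the change was 1.16 ± 0.28 and missed the threshold (adjusted p = 0.0605, and 5.8e-05 with the experiment as a block). The block also brought the changes at 4 h (0.91, adjusted p = 4.2e-04) and 6 h (1.04, adjusted p = 1.4e-04) past it. The 8 h call was lost in 6 and the 10 h call in 8 of the 16 fits that leave out a library, with changes down to 0.88 at 8 h (without the 0 h library of experiment 1) and 0.98 at 10 h (without the same library). The test of any change missed the threshold (adjusted p = 0.0957) and passed it with the block (adjusted p = 9.7e-05).

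Bases added at the 3′ end of miR-29a-3p changed little as a share. Non-templated additions took 8.68% to 10.98% of its reads, and the trend of that share was not called (0.0120 ± 0.0050, adjusted p = 0.0692, and 0.0306 with the block). Added A (2.50% to 3.75% of reads) and added G (2.51% to 3.40%) were the commonest single additions, and added U stayed at or below 0.117%. Added A and added C each separated the experiments at every time. Added A took 2.50% to 2.96% of reads in experiment 1 and 3.39% to 3.75% in experiment 2. Added C took 1.51% to 1.96% in experiment 1 and 0.778% to 1.14% in experiment 2. Templated 3′ additions fell as a share, by 0.0278 ± 0.0074 log2 odds units per hour (adjusted p = 0.0103). They took 2.08% to 3.11% of its reads, and 24.8% of 206 miRNAs tested had a called trend.

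miR-29b-3p, the guide with the nuclear-import element AGUGUU at its 3′ end that was described in human cells, was the next most abundant member. In experiment 1 it was at 53.7, 48.8, 54.0, 64.4, 86.1, 89.4, 94.3 and 88.2 CPM over the 8 times. Experiment 2 had it at 74.6, 56.0, 45.4, 38.4, 41.2, 70.7, 36.2 and 94.8 CPM. The experiments disagreed most at 10 h, where experiment 2 had 239 reads and experiment 1 had 577, and all times overlapped 0 h except 12 h, where both libraries were above both of 0 h. The log2 change at 12 h was 0.51 ± 0.40 (SE, adjusted p = 0.461), and no time passed the test against 0 h.

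The trend of miR-29b-3p was 0.054 ± 0.023 log2 units per hour (adjusted p = 0.0840), 0.0829 in experiment 1 alone (adjusted p = 0.00118) and 0.0245 in experiment 2 alone (adjusted p = 0.703). The difference of the slopes, experiment 2 minus experiment 1, was -0.0585 and was not called (adjusted p = 0.764). Of the 449 miRNAs none had a called difference of slopes in edgeR, and 24 had an unadjusted p under 0.05. The overall trend was called without the 10 h library of experiment 2 (0.0687) and without the 0 h library of experiment 2 (0.0679), with adjusted p = 0.0118 and 0.0440.

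Nearly all reads of miR-29b-3p were equal to the reference (79.1% to 90.3%) or trimmed. Its trimmed share in experiment 1 was 18.8%, 13.5%, 11.5%, 14.5%, 10.2%, 10.7%, 8.67% and 8.98% over the 8 times. In experiment 2 it was 19.1%, 19.4%, 17.6%, 17.3%, 16.3%, 12.5%, 13.4% and 9.29%. Both libraries of 12 h were below every library of 0 to 6 h. The trend was -0.0876 ± 0.018 log2 odds units per hour (SE, adjusted p = 0.00108), with -0.0844 in experiment 1 alone and -0.0909 in experiment 2 alone, both called.

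At 12 h the log2 odds of miR-29b-3p had fallen by 1.21 ± 0.34 (adjusted p = 0.0394), one of 3 members called lower there, where 12.1% of the 307 miRNAs were called and 5.86% were lower. That call was lost in 8 of the 16 fits that leave out a library (adjusted p up to 0.161). With the experiment as a block the share also passed at 8 h (adjusted p = 0.0381), at 10 h (0.0138) and in the test of any change (0.0321, against 0.249 without it). The trimmed slopes of miR-29a-3p and miR-29b-3p were close, but whether they differ was not tested.

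miR-29c-3p, the guide that differs from miR-29a-3p only by C10U, gave no called change with all 16 libraries. Its level ran from 26.9 to 34.1 CPM in experiment 1 and from 16.5 to 28.8 CPM in experiment 2, and at every time from 1 h on experiment 1 was higher. The average was 26.3 ± 4.70 CPM at 12 h and 27.8 ± 1.39 CPM at 0 h (SD, n = 2 each), a log2 change of -0.08 ± 0.33 (SE, adjusted p = 0.889). Its trimmed share was 14.6% to 29.6% with no order in time (trend 0.012 ± 0.021, adjusted p = 0.700), while that of miR-29a-3p fell. The Wilson intervals of its shares were 10.2 to 15.8 percentage points wide, against at most 1.29 for miR-29a-3p. Non-templated 3′ additions took 18.9% to 31.2% of its reads, above the 10.98% that miR-29a-3p reached at most and the 2.04% that miR-29b-3p reached at most, and added C alone took 3.78% to 12.8%. The trend of its templated 3′ extended share was -0.037 ± 0.048 (adjusted p = 0.679), and it was called without the 0 h library of experiment 2 (-0.093, adjusted p = 0.0438).

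miR-29a-5p, the passenger of Mir29a, was counted 79 to 171 times per library. In experiment 1 it was at 12.4, 12.0, 19.9, 21.6, 22.1, 21.3, 23.5 and 19.9 CPM over the 8 times. Experiment 2 had it at 17.0, 11.6, 11.9, 17.7, 20.2, 19.3, 21.2 and 24.5 CPM. Each time from 4 h on lay with both libraries above both of 0 h, and each neighbouring pair in order of level from 0 h up overlapped. The log2 change was 0.60 ± 0.24 at 10 h (SE, adjusted p = 0.132) and 0.59 ± 0.24 at 12 h (adjusted p = 0.132), and no time passed the test.

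The trend of miR-29a-5p was called, at 0.0634 ± 0.0154 log2 units per hour (SE, adjusted p = 0.0053), with a guide slope of 0.0634 as well. Of the 5 members these 2 had a called trend, where 25.2% of the 449 miRNAs had one and 12% a rising one. Within one experiment the trend missed the threshold (0.0576, adjusted p = 0.0933 in experiment 1, and 0.0687, adjusted p = 0.0509 in experiment 2). It also missed it over reads equal to the reference alone (0.032, adjusted p = 0.237), whose averages were 7.84 ± 1.58 CPM at 12 h and 5.96 ± 2.10 CPM at 0 h.

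In the Mir29a hairpin the bases that follow the RefSeq entry of miR-29a-5p are agucaa. Of its extended classes, the share of reads extended at the 3′ end by templated bases had a called trend. These reads averaged 3.78 ± 0.00856, 3.14 ± 0.503, 5.54 ± 0.583, 8.15 ± 0.801, 8.53 ± 1.73, 10.6 ± 2.08, 11.6 ± 1.60 and 9.95 ± 3.50 CPM over the 8 times (SD, n = 2 each). Their share rose by 0.120 ± 0.033 log2 odds units per hour (adjusted p = 0.0117), and in experiment 1 alone this trend missed the threshold (0.0684, adjusted p = 0.0620). Some other classes were higher at 12 h than at 0 h within each experiment, while the libraries of these times overlapped. Non-templated 3′ additions were at 4.33 and 1.89 CPM at 12 h, against 2.10 and 0.68 CPM at 0 h. These additions took 14.7% to 24.3% of the reads of miR-29a-5p in experiment 1 and 1.27% to 7.69% in experiment 2. Reads equal to the reference were at 6.73 and 8.96 CPM at 12 h, against 4.48 and 7.44 CPM at 0 h. The trend of the non-templated share was not called (0.032 ± 0.073, adjusted p = 0.767). The number of bases added is not part of the class.

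The trimmed share of miR-29a-5p was 16.9%, 15.7%, 5.71%, 8.77%, 12.3%, 14.7%, 10.4% and 6.77% over the 8 times in experiment 1. Shares in experiment 2 were 30.2%, 25.3%, 16.5%, 11.03%, 6.67%, 9.65%, 5.71% and 5.13%. Experiment 2 was higher up to 4 h and lower after it. The trend was -0.141 ± 0.038 log2 odds units per hour (SE, adjusted p = 0.00879) and in experiment 1 alone -0.0488 (adjusted p = 0.569). The fall at 12 h was 2.19 ± 0.60 (adjusted p = 0.0351), and it was not called without the 0 h library of experiment 2 (1.65, adjusted p = 0.224) or without either 12 h library (adjusted p = 0.106 without experiment 1 and 0.164 without experiment 2). These shares rest on 8 to 38 trimmed reads per library.

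miR-29b-1-5p, the passenger of Mir29b-1, moved first and most. In experiment 1 it was at 6.15, 2.69, 28.8, 33.1, 20.5, 19.4, 19.8 and 16.3 CPM over the 8 times. Levels in experiment 2 were 6.50, 6.59, 23.7, 30.2, 27.9, 24.6, 31.4 and 24.2 CPM. Every library from 2 h on was above every library of 0 and 1 h, and the lowest single value, 2.69 CPM, was 20 reads. The average was highest at 4 h, while experiment 2 alone was highest at 10 h (31.4 CPM, against 30.2 CPM at 4 h), and the times from 6 to 12 h overlapped one another.

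The log2 change of miR-29b-1-5p was -0.46 ± 0.39 at 1 h (SE, adjusted p = 0.994) and 2.05 ± 0.34 at 2 h (adjusted p = 0.00538), where 2.45% of the 449 miRNAs were called. It was 2.32 ± 0.34 at 4 h (adjusted p = 6.2e-04), where 7.57% were called. It was 1.93 ± 0.34, 1.79 ± 0.35, 2.01 ± 0.34 and 1.67 ± 0.35 at 6, 8, 10 and 12 h (adjusted p = 0.00281, 0.00404, 0.00153 and 0.00437), and 7.8% of miRNAs were called at 6 h. No other member was called at 2, 4 or 6 h. The 2 h call was lost without the 0 h library of experiment 2 (2.10, adjusted p = 0.0678). Its linear slope was not called (0.093 ± 0.050 log2 units per hour, adjusted p = 0.189).

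Almost none of the reads of miR-29b-1-5p were equal to its reference. Templated 3′ extensions took 70.5% to 96.1% of its reads, and reads equal to the reference numbered 0 to 8 per library. The rise lay in the extended reads, at 29.6 ± 2.20 CPM at 4 h and 4.94 ± 0.857 CPM at 0 h (SD, n = 2 each). In the Mir29b-1 hairpin the bases that follow this arm are gauuua. If the authors' reference ends where the RefSeq entry of 22 bases does, most of the counted molecules are longer and run into that stretch. Read sequences and lengths were not seen here. No change of the share of extended reads was called (any change, adjusted p = 0.168). No read of either passenger was extended at the 5′ end.

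The trimmed share of miR-29b-1-5p was 9.09%, 5.0%, 0.493%, 0.763%, 4.20%, 3.23%, 4.13% and 3.67% over the 8 times in experiment 1. In experiment 2 it was 8.33%, 2.22%, 0.637%, 1.72%, 3.01%, 2.76%, 2.42% and 6.49%. The shares were lowest at 2 h, when the total had risen, and they changed over the course (adjusted p = 0.00514). Beside miR-29a-3p (adjusted p = 6.2e-07) this was the only member to do so in that fit, where 9.12% of the 307 miRNAs did. The log2 odds fell by 3.65 ± 0.49 at 2 h (SE, adjusted p = 0.00294), where 1.95% of the 307 were called, and by 2.95 ± 0.49 at 4 h (adjusted p = 0.00359). The 4 h call was lost without the 4 h library of experiment 1 (adjusted p = 0.0502). With the block the share at 10 h also passed (adjusted p = 0.0488, against 0.0558 without it). These shares rest on 1 to 10 trimmed reads per library, and the 0.5 reads added weigh on them.

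The ratio of the arms changed by the test for miR-29b and gave no called change for miR-29a. For each later time the log2 ratio of passenger to guide reads was compared with 0 h by limma over 152 pairs of arms. Arms were paired by name, so several hairpins may share an arm, and the less abundant arm was taken as the passenger. miR-29a-5p stood at 0.402% ± 0.0497 of the reads of miR-29a-3p at 12 h and 0.420% ± 0.0502 at 0 h (SD, n = 2 each), and between 0.314% and 0.556% in all 16 libraries. The log2 change of that ratio at 12 h was -0.06 ± 0.24 (SE, adjusted p = 0.884). Its trend was 0.0026 ± 0.0138 per hour (adjusted p = 0.914). Over reads equal to the reference alone the ratio fell, by 0.0687 per hour (adjusted p = 0.0114). In that class the trend of miR-29a-3p was 0.103 log2 units per hour (adjusted p = 5.4e-09) and that of miR-29a-5p was 0.032, which was not called.

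For miR-29b the ratio of miR-29b-1-5p to miR-29b-3p was tested, although that guide also comes from Mir29b-2. In experiment 1 the passenger stood at 11.5%, 5.51%, 53.3%, 51.4%, 23.8%, 21.8%, 21.0% and 18.5% of the guide's reads over the 8 times. The figures for experiment 2 were 8.71%, 11.8%, 52.2%, 78.6%, 67.8%, 34.8%, 86.6% and 25.5%. Every library from 2 h on was above every library of 0 and 1 h, and the experiments differed most at 10 h, where the guide was low in experiment 2.

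The ratio of miR-29b-1-5p to miR-29b-3p changed over the course (adjusted p = 0.0226), 1 of the 2 pairs of the family, where 19.1% of all 152 pairs did. That call was lost without the 0 h library of experiment 2 (adjusted p = 0.0559) and without the 1 h library of experiment 1 (adjusted p = 0.0700). The log2 ratio was 2.66 ± 0.63 above 0 h at 4 h (SE, adjusted p = 0.0185), where 12.5% of the 152 pairs were called. It was 2.08 ± 0.63 above 0 h at 10 h (adjusted p = 0.0429), where 14.5% were. At 2 h it was 2.39 ± 0.63 (adjusted p = 0.0508, and 0.00724 with the block) and at 6 h 2.00 ± 0.63 (adjusted p = 0.0620, and 0.0202 with the block). At 12 h it was 1.11 ± 0.63 and did not pass (adjusted p = 0.260). The 4 h call was lost without any one of the libraries of 0 h or 4 h (adjusted p up to 0.140), and the 10 h call in 11 of the 16 fits that leave out a library, with a change of 1.06 without the 10 h library of experiment 2 (adjusted p = 0.323). Over reads equal to the reference, few for this passenger, the calls at 4 h, at 10 h and of any change were lost (adjusted p = 0.640, 0.482 and 0.760).

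**Figure D4:**
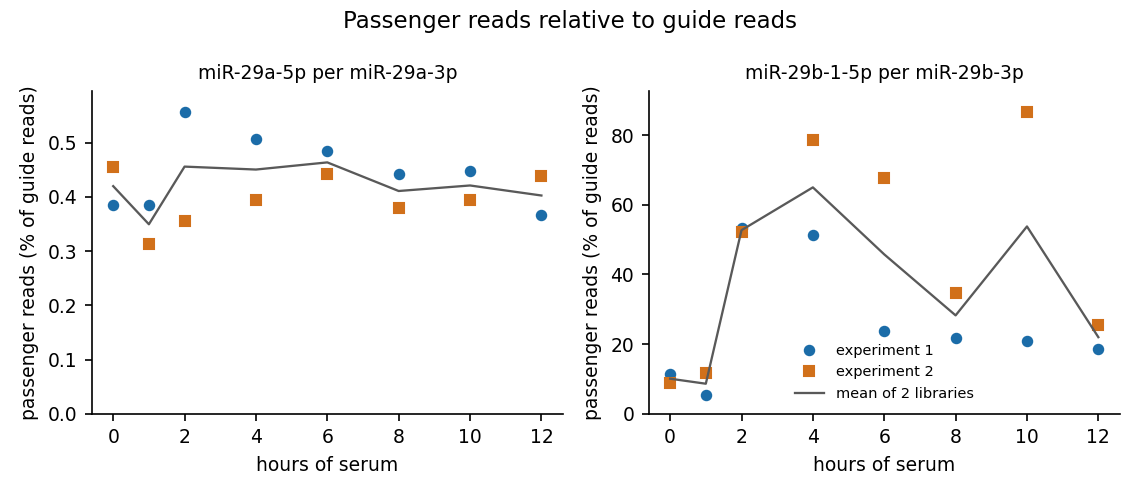
Passenger reads as a percentage of guide reads (y axes from 0) by hours of serum (x axes) for miR-29a and for miR-29b-1-5p with miR-29b-3p; circles are experiment 1, squares experiment 2, lines the means. The miR-29a passenger stays between 0.314% and 0.556% of its guide, while the miR-29b passenger averages 65.0% of its guide at 4 h and 10.1% at 0 h.

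The remaining passengers of the family were near the limit of a count of 0. miR-29c-5p had 3 to 8 reads in a library, and miR-29b-2-5p had 0 to 6, all of them in the trimmed class. Neither level can be compared between times at this depth. The passenger of Mir29b-2 reached at most 0.879 CPM in a library.

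Among themselves the members varied in likeness over the 16 libraries, which share experiments and times. The Pearson correlation of log2 CPM was 0.831 between miR-29a-3p and miR-29a-5p. miR-29b-1-5p correlated with miR-29a-5p at 0.693 and with miR-29a-3p at 0.616, and miR-29b-3p with miR-29c-3p at 0.640. The other 6 pairs lay between -0.229 (miR-29b-1-5p with miR-29c-3p) and 0.464 (miR-29a-5p with miR-29b-3p), with -0.033 between miR-29b-1-5p and miR-29b-3p. Over the 261 miRNAs that averaged 10 CPM or more, those most like miR-29a-3p were miR-222-5p (r = 0.954), miR-455-3p (0.949) and miR-6539 (0.938). Those most like miR-29a-5p were miR-455-5p (0.830), miR-221-5p (0.825) and miR-6944-3p (0.825). For miR-29b-1-5p they were miR-155-5p (0.910), miR-365-2-5p (0.870) and miR-129-5p (0.852). For miR-29b-3p they were miR-27a-3p (0.903), miR-27b-3p (0.876) and let-7f-2-3p (0.876), and for miR-29c-3p they were miR-30e-5p (0.927), miR-542-3p (0.896) and miR-708-3p (0.883), and none of these 6 changed over the course by edgeR's test.

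Other miRNAs linked to extracellular matrix and fibrosis were set beside the family from a list of 11, of which 9 were tested. At 12 h 1 had risen and 2 had fallen, with a median log2 change of -0.37, beside 37 higher and 27 lower with a median of 0.005 over all 449. miR-30c-5p, known for repressing the matrix gene Ctgf in rat heart cells, was at 758 and 613 CPM at 12 h, against 2232 and 2392 CPM at 0 h (log2 change -1.75 ± 0.16, adjusted p = 7.3e-06). miR-214-3p, a miRNA of mesenchymal cells, was at 607 and 580.3 CPM at 12 h, against 1028 and 1059 CPM at 0 h (-0.81 ± 0.12, adjusted p = 3.0e-04). The one that rose was miR-21a-5p, known for promoting fibrosis in the mouse heart, at 82680 and 99673 CPM at 12 h, against 57286 and 63725 CPM at 0 h (0.59 ± 0.18, adjusted p = 0.0434). In the edgeR test of any change over the course miR-21a-5p was not called (adjusted p = 0.142).

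Of 17 tested miRNAs from a list that Myc represses in lymphoma cells, other than miR-29, 2 rose and 2 fell at 12 h. Their median log2 change was 0.007, and 8.24% of all 449 miRNAs were called higher and 6.01% lower at that time. By trend 2 rose and 4 fell, where 12% of all 449 miRNAs had a rising and 13.1% a falling trend. miR-22-3p rose by 0.34 ± 0.08 (adjusted p = 0.00813), miR-30a-5p rose by 0.35 ± 0.11 (adjusted p = 0.0483), and miR-30b-5p fell by 1.30 ± 0.22 (adjusted p = 0.00119). Of these, miR-30a-5p was not called in the edgeR test of any change over the course (adjusted p = 0.0547). miR-30c-5p is on this list as well.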

How the data were processed

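Total RNA (1000 ng a sample) went into Illumina TruSeq small RNA libraries, per the labels' protocols. The authors deposited read counts per miRNA and read class, whole numbers without scaling. The submitters' processing notes name CASAVA 1.8.0, while aligner, miRBase release and genome build are not given in them or elsewhere here. The table has 6511 rows, of which 1 exact duplicate was dropped, and the 8 non-overlapping classes were summed per miRNA.

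Counts were tested in R 4.3.3 with edgeR 4.0.16 (TMM, filterByExpr with a minimum count of 10, 449 miRNAs tested and 718 left out, all 16 libraries in 1 fit, Benjamini-Hochberg at 0.05). The SE is the log2 change over the square root of F. Shares and arm ratios were tested with limma 3.58.1 (eBayes with a trended prior). Tests of extended shares and of slopes between experiments were chosen after seeing the data. Those of extended shares covered miRNAs with at least 20 reads in every library and a mean of at least 5 reads of the class. Those of slopes covered all 449 miRNAs. Alternatives included DESeq2 1.42.0 and limma-voom. The fits were tested on simulated data, with libraries drawn independently and no experiment effect. With a true log2 change of 1 over 12 h, edgeR called 81.6% by trend and 73.5% at 12 h against 0 h. The limma trend of trimmed shares called 86% at a log2 odds change of 1. Of unchanged simulated miRNAs 1.65%, 1.24% and 2.80% were called in the same order. For the simulated shares, the spread beyond counting was a fixed setting, the same for all miRNAs and not estimated from these data. The rates for shares may therefore not hold for members whose shares vary more.

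Replicates are independent experiments in the design text of the series, so the number marks an experiment. Deviations of same-numbered libraries from their time means correlated in 28 of 28 pairs of times (r from 0.134 to 0.602). Replicates differed beyond counting noise (chi-square per degree of freedom 58.8 to 324). The members, the lists and the rule for named miRNAs (all members, the 3 most alike miRNAs by Pearson r of log2(CPM + 0.5), and called list members) were chosen with earlier results of these data known. A further time point in the design text was not analysed here.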

Additional observations from a re-analysis of the deposited data

How the results depend on the processing

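Leaving out changes of the 3′ extended shares at single times, the members gave 133 results under 2840 alternative values, of which 35 results were called. Of the 755 alternative values of those, 55 lost the call and 0 changed sign. Among the alternative values of the uncalled results, 55 gained a call without a change of sign and 1 gained it with the sign reversed. The counts of called miRNAs for any change in abundance (62) were 39 at a mean of at least 10 CPM, 101 with no filter and 110 with the replicate block, and 36 to 60 when a library was left out, lowest without the 0 h library of experiment 2. Called abundance trends were 52 in experiment 2 alone. Called trimmed shares were 57 for any change with the block, and 58 and 51 for trend in experiments 1 and 2 alone. Called arm ratios were 17 at 10 CPM and 18 over reference-equal reads for any change, and 13 for trend in experiment 2 alone.

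For miR-29a-5p the adjusted p of any change was 0.0329 with DESeq2, 0.0368 with no filter and 0.0412 with the replicate block, and 0.0364 to 0.313 without one library. Its abundance trend was 0.0576 and 0.0687 in experiments 1 and 2 alone and 0.0324 over reference-equal reads, none of them called, and its trimmed trend -0.0488 in experiment 1, not called either. The miR-29a arm ratio trend was -0.00797 in experiment 1, -0.00489 to 0.00908 without one library, and -0.0687 over reference-equal reads, where it reversed from 0.0026. For miR-29b-3p the adjusted p of any change was 0.0102 with no filter, and the trend was 0.0829 in experiment 1, 0.0715 over reference-equal reads and 0.0475 to 0.0687 without one library. Its trimmed share gave an adjusted p of 0.0321 with the block. The miR-29b arm ratio had an adjusted p of 0.760 over reference-equal reads and 0.00446 to 0.0700 without one library. Uncalled trends crossed 0 for miR-29c-3p (0.0105 in experiment 1, -0.0135 to 0.00568 without one library), for its trimmed share (-0.0120, and -0.00208 to 0.0265) and for the trimmed share of miR-29b-1-5p (-0.0128 to 0.0624). The cause was not tested in these cases.

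Unscaled totals, without TMM, shift the log2 changes of all miRNAs: -0.129 (8 h), -0.132 (10 h), -0.158 (12 h). Among the results counted above, the block changed no other call than those named here or beside a result. Reference-equal reads gave no abundance value for miR-29b-1-5p. With 2 libraries a time, a left-out library leaves 1, taken to vary like the others. Shares of the rarer members rest on few reads.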
